A study of Homo sapiens with 30 samples.

Results

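TTN, CCDC141 and TTN-AS1 are neighbouring genes on human chromosome 2, and their RNA was followed in LNCaP prostate cancer cells over a dose series of the synthetic androgen R1881. The 3 genes were picked by symbol, for a large rise with dose seen in these same libraries, out of 37843 gene rows in the LNCaP count table, and all 3 passed the filter on low counts that left 18403 genes for testing. TTN and CCDC141 did rise with R1881. TTN-AS1, the antisense gene, did not: its libraries at every dose overlapped those of vehicle. Because the dose contrasts chose the genes, their values are given as a description with no test.

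LNCaP is an established, androgen-responsive human prostate cancer line that began as a lymph node metastasis. The cells were plated at 130000 per well, held for 48 h in medium with 8% charcoal-stripped serum, which is depleted of steroid hormones, and then treated for 24 h. The groups were vehicle and R1881 at 0.03, 0.06, 0.1 and 10 nM, with 3 mRNA libraries each, numbered 2, 3 and 4. Separate cultures are not stated in the labels, so p-values measure only the spread between these libraries. In bulk RNA, a larger share of cells expressing a gene and more RNA per cell cannot be told apart.

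TTN encodes titin, the giant elastic protein that runs from the Z-disc to the M-band of the sarcomere in heart and skeletal muscle, where it acts as a spring and a scaffold. CCDC141, also called CAMDI, encodes a coiled-coil protein studied in migrating neurons, where it binds DISC1 and non-muscle myosin II and inhibits the deacetylase HDAC6. TTN-AS1 is a long noncoding RNA gene read from the strand opposite TTN. R1881 binds the androgen receptor, which enters the nucleus and binds DNA at androgen response elements, often far from the start sites of the genes it controls.

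By GENCODE 29 on GRCh38, TTN (ENSG00000155657) spans chr2:178525989-178830802 on the minus strand, with 17 transcripts. The longest of them, TTN-214, is 109224 bases long in 363 exons. CCDC141 (ENSG00000163492) spans chr2:178829757-179050086 on the same strand, upstream of TTN, and its longest transcript has 9131 bases in 24 exons. The spans of TTN and CCDC141 overlap by 1046 bases, of which 138 are exonic in both genes. Those bases are the first exon of TTN-205, a TTN transcript of 5 exons whose first 3 exons lie inside the longer CCDC141 span of RefSeq, chr2:178814978-179050137. Reads in that exon could be split between the genes by the authors' counting, but it makes up 0.1% of the merged exons of TTN and 0.9% of those of CCDC141. TTN-AS1 (ENSG00000237298) spans chr2:178521183-178779963 on the plus strand and lies almost wholly opposite TTN. Exons of TTN cover 55.1% of the merged exon bases of TTN-AS1.

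The RefSeq windows (GRCh38.p14) from 250 bases before to 50 after the annotated start are shown for all 3 genes, since TTN and CCDC141 moved together with dose and TTN-AS1 did not. The windows are TTN at chr2:178807374-178807673 on the minus strand, CCDC141 at chr2:179050088-179050387 on the minus strand, and a pair of TTN-AS1 starts on the plus strand at chr2:178522577-178522876 and chr2:178522941-178523240. The TTN window is at the RefSeq start, downstream of the first exon of TTN-205. Each sequence reads 5′ to 3′ on the gene's own strand, and capitals mark matches to the motifs named after them.
TTN: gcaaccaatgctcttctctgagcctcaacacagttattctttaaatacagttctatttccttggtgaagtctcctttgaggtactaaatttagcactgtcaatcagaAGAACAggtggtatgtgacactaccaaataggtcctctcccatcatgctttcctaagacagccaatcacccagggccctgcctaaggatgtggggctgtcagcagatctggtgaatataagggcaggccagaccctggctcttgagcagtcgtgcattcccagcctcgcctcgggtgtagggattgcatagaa
CCDC141: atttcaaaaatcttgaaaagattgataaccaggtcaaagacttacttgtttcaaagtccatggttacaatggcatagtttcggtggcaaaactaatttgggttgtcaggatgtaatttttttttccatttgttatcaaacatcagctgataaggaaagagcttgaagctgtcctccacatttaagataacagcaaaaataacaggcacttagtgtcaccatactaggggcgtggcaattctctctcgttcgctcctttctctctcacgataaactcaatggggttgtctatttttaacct
TTN-AS1 first start: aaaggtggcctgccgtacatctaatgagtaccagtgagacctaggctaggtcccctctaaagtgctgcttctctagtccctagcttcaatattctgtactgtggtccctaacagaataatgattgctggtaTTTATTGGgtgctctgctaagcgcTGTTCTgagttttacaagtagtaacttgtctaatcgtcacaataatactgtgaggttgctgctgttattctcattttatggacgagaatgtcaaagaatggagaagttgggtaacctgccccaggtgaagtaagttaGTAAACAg
TTN-AS1 second start: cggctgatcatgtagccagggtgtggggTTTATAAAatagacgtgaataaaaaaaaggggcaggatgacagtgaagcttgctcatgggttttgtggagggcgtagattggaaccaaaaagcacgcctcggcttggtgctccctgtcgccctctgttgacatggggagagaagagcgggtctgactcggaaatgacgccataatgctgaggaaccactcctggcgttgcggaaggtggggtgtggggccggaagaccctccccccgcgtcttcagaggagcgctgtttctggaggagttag
The motifs were searched on both strands. The full palindromic androgen response element, AGAACA and TGTTCT with 3 free bases between, was in none of the 4 windows, and it was in 0.00285% of all 35116 promoter windows. AGAACA alone was at base -143 of the TTN window and, on the opposite strand, at -95 of the first TTN-AS1 window. That short motif was in 14.8% of all windows. The CCDC141 window held none of the motifs searched. The first TTN-AS1 window also held, on the opposite strand, the HOXB13-type CCAATAAA (0.934% of windows) and the forkhead-type TGTTTAC (3.42%). The second held TATAAA (11.5%) on both strands in overlapping positions. GGGCGG, the GC box present in 45.0% of windows, was in none of them. These matches describe letters only, and the windows are short beside the distances at which the receptor can bind.

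TTN RNA was nearly absent in vehicle and readily counted at the higher doses. It had 5, 2 and 0 counts in the vehicle libraries 2, 3 and 4. At 0.03 nM it had 17, 28 and 49 counts, at 0.06 nM 177, 105 and 187, and at 0.1 nM 343, 595 and 421. At 10 nM it had 2452, 2131 and 2760 counts. Levels are CPM, counts relative to the library size after scaling by the trimmed mean of M values (TMM), a scaling that assumes that most genes do not change. On this scale TTN averaged 0.0539 ± 0.0592 CPM in vehicle, 0.722 ± 0.29 at 0.03 nM, 4.23 ± 0.728 at 0.06 nM, 11.4 ± 2.32 at 0.1 nM and 57.9 ± 16.2 at 10 nM (SD, n = 3 each). Every library at a dose was above every library at the dose before it. Among all 18403 genes tested, the share with all 3 libraries above vehicle was 13.1% at 0.03 nM, 21.9% at 0.06 nM, 25.2% at 0.1 nM and 31.5% at 10 nM, and between neighbouring doses it was 13.2%, 7.87% and 25.5%.

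CCDC141 was also scarce in vehicle and higher at each dose. Its counts were 3, 5 and 7 in vehicle, 42, 36 and 64 at 0.03 nM, 305, 192 and 274 at 0.06 nM, and 596, 674 and 563 at 0.1 nM. At 10 nM they were 2689, 2401 and 3018. Mean levels were 0.114 ± 0.0457 CPM in vehicle, 1.09 ± 0.145 at 0.03 nM, 6.99 ± 0.595 at 0.06 nM, 15.5 ± 1.06 at 0.1 nM and 63.8 ± 17 at 10 nM (SD, n = 3 each). The groups of 3 libraries did not overlap at any step of the series.

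The edgeR log2 fold change of TTN over vehicle was 3.70 ± 0.77 at 0.03 nM, 6.24 ± 0.54 at 0.06 nM, 7.66 ± 0.46 at 0.1 nM and 10.0 ± 0.40 at 10 nM (SE). That of CCDC141 was 3.24 ± 0.45, 5.90 ± 0.32, 7.04 ± 0.29 and 9.08 ± 0.27 at the same doses. Ordered by log2 fold change at 10 nM, TTN was in place 2 and CCDC141 in place 9 of the 18403 tested genes. The size of these folds rests on very few vehicle counts. Pooled over libraries, TTN had 7343 counts at 10 nM against 7 in vehicle, a ratio of 1040 after scaling with a counting interval of 507 to 2600 (95%). CCDC141 had 8108 counts at 10 nM against 15 in vehicle, a ratio of 538 with an interval of 326 to 962. Vehicle library 2 held 5 of the 7 vehicle counts of TTN, and without it the log2 fold change at 10 nM was 11.14. Vehicle library 4, with 0 counts, allows a TTN level of up to 0.0692 CPM (3 counts). Intervals and such limits cover counting error only.

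**Figure D1:**
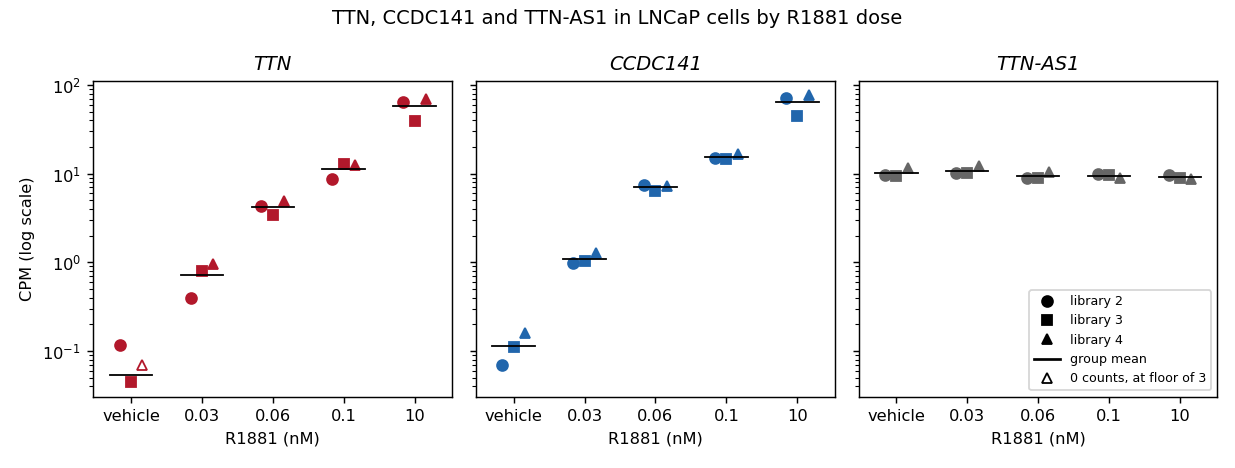
Levels of TTN, CCDC141 and TTN-AS1 in CPM on a log axis, by R1881 dose, with 1 symbol per library and a line at each group mean; the open triangle is the vehicle library with 0 TTN counts, set at its limit of 3 counts. TTN and CCDC141 climb at each dose with no overlap between neighbouring doses, while TTN-AS1 stays between 8.66 and 12.1 CPM in all 15 libraries.

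Comparisons between neighbouring doses do not rest on the sparse vehicle counts. TTN was 5.86-fold higher in mean CPM at 0.06 nM than at 0.03 nM (log2 2.54 ± 0.33, SE), and 2.69-fold higher at 0.1 nM than at 0.06 nM (1.42 ± 0.23). From there, 10 nM was 5.08-fold above 0.1 nM (2.34 ± 0.20). The matching steps of CCDC141 were 6.39-fold (2.66 ± 0.22), 2.22-fold (1.14 ± 0.16) and 4.11-fold (2.04 ± 0.14). Both genes were thus still higher at 10 nM than at 0.1 nM, across the widest gap in dose.

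The 10 nM libraries were uneven for both genes in the same way. TTN had 39.4 CPM in library 3, against 64.7 and 69.7 CPM in libraries 2 and 4, and CCDC141 had 44.4 CPM in library 3, against 70.9 and 76.2 CPM. Library 3 at 10 nM was the deepest of all, with 61199483 counts, and libraries numbered 3 had 9.31 to 10.7% mitochondrial counts, against 6.14 to 7.69% in the other 10. Whether this bears on the low values was not tested. With the 5 libraries numbered 3 left out, the log2 fold changes at 10 nM were 10.1 for TTN and 9.26 for CCDC141.

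TTN-AS1 stood at a low level that changed little with dose. Its counts were 368, 484 and 343 at 10 nM and 411, 429 and 502 in vehicle, with 274 to 614 at the doses between. Mean levels were 10.3 ± 1.16 CPM in vehicle, 10.8 ± 1.13 at 0.03 nM, 9.45 ± 0.906 at 0.06 nM, 9.48 ± 0.404 at 0.1 nM and 9.11 ± 0.539 at 10 nM (SD, n = 3 each). The log2 fold changes over vehicle were 0.08 ± 0.10, -0.12 ± 0.10, -0.11 ± 0.10 and -0.17 ± 0.10 (SE), and libraries overlapped in every comparison. The 10 nM value depended on scaling: with library totals alone it was -0.38, in a fit where the median of all genes was at -0.22 and not at -0.013. The antisense gene thus held 7.31 ± 2.1% of the counts of the 3 genes at 10 nM and 98.4 ± 0.268% in vehicle (SD, n = 3 each), while the range of its own level at 10 nM overlapped that in vehicle.

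The library kit keeps the strand, but the strand setting of the counting is not given in the sources used here. Reads from TTN and TTN-AS1 cannot then be told apart with certainty where their exons overlap. Whether reads were assigned to the wrong one was not tested. Summed over 3 libraries, TTN had 7343 counts at 10 nM and 7 in vehicle, while TTN-AS1 had 1195 counts at 10 nM and 1342 in vehicle. Inside the TTN body 8 further rows are annotated, and the 6 of them that were tested all lie on the plus strand, opposite TTN. At 10 nM, AC009948.3 had 0.765, 1.22 and 1.11 CPM, against 0.399, 0.333 and 0.669 CPM in vehicle (log2 1.16 ± 0.30, SE, edgeR adjusted p = 0.00282). AC010680.2 had 0.923, 0.666 and 0.883 CPM at 10 nM, against 1.06, 1.38 and 1.29 CPM in vehicle (-0.61 ± 0.20, adjusted p = 0.0153). The other 4 were not called, where 57.6% of all genes were called at 10 nM. These RNAs, named after their values were seen, were all under 1.5 CPM in each group and moved in different directions.

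TTN and CCDC141 were close in counts but far apart per length. Of the counts of the pair, TTN held 31.8% in vehicle (7 of its 22 counts, Clopper-Pearson 95% interval 13.9 to 54.9%). Its share was 39.8% at 0.03 nM (interval 33.5 to 46.4%) and 37.8% at 0.06 nM (interval 35.1 to 40.6%). At 0.1 nM it was 42.6% (interval 40.9 to 44.3%), and at 10 nM 47.5% (interval 46.7 to 48.3%). The 3 libraries at 10 nM gave 47.7, 47.0 and 47.8%, the lowest of them only just above the highest library at 0.1 nM. At 0.1 nM the libraries gave 36.5, 46.9 and 42.8%, which overlapped the 35.4 to 40.6% at 0.06 nM. In library 3 at 10 nM, where both genes were low, the division was within 1 percentage point of the other 2 libraries.

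**Figure D2:**
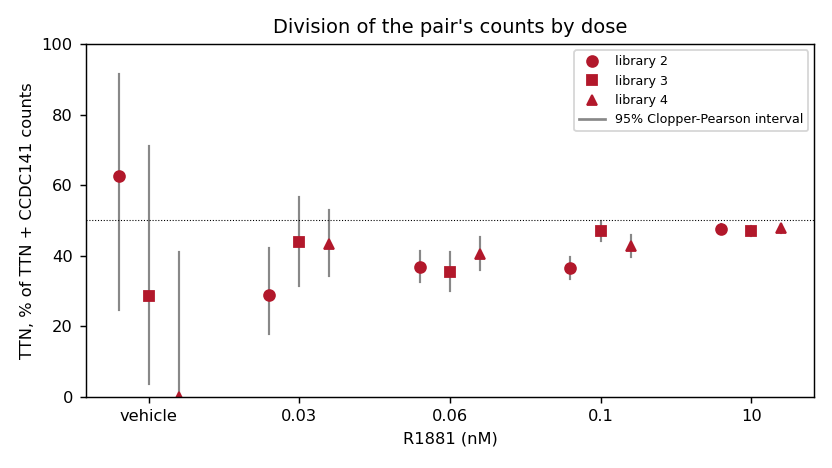
Share of the TTN plus CCDC141 counts that TTN held in each library, in percent, by R1881 dose, with 95% Clopper-Pearson intervals for counting error; the dotted line marks an even split. The vehicle intervals are wide, and the 10 nM libraries lie together at 47.0 to 47.8%.

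Divided by merged exon length, 119.0 kb for TTN and 15.4 kb for CCDC141, the level of TTN at 10 nM was 0.487 CPM per kb and that of CCDC141 was 4.13 CPM per kb. TTN-AS1, with 20.7 kb of merged exons, was at 0.441 CPM per kb at 10 nM and 0.496 CPM per kb in vehicle. On this scale CCDC141 exceeded TTN by a factor of 11.7 at 0.03 nM, 12.7 at 0.06 nM, 10.5 at 0.1 nM and 8.49 at 10 nM. With 7 TTN counts in vehicle, no factor is given there. Per merged exon length, then, TTN at 10 nM was about level with its antisense gene. On that scale CCDC141 was the highest of these genes from 0.1 nM on. This order depends on the length chosen. The longest annotated transcripts have 109224 bases for TTN, 9131 for CCDC141 and 4592 for TTN-AS1. With those lengths TTN-AS1 would lie above TTN at 10 nM and above CCDC141 at 0.1 nM. CCDC141 would still be the highest at 10 nM. The transcripts used in these cells were not measured, so the lengths are those of the annotation and the order is not settled.

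The dose pattern of the pair was set beside known androgen-induced genes, each as a share of its own 10 nM mean. TTN had reached 1.25% of its 10 nM level at 0.03 nM, 7.3% at 0.06 nM and 19.7% at 0.1 nM. CCDC141 had reached 1.71, 10.9 and 24.3% at these doses. KLK3, which encodes prostate-specific antigen, had reached 20.1, 39.0 and 54.1%, and TMPRSS2, a membrane serine protease, 14.2, 23.9 and 35.3%. FKBP5, which encodes an HSP90 co-chaperone, ran close to the pair at 3.88, 8.59 and 19.6%. STEAP4, a metalloreductase, was at 0.465% at 0.06 nM and 2.82% at 0.1 nM, and NDRG1, a growth-arrest gene, at 2.89, 4.38 and 8.18% over the 3 doses. At 0.1 nM the pair was thus below KLK3 and TMPRSS2, near FKBP5, and above NDRG1 and STEAP4.

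**Figure D3:**
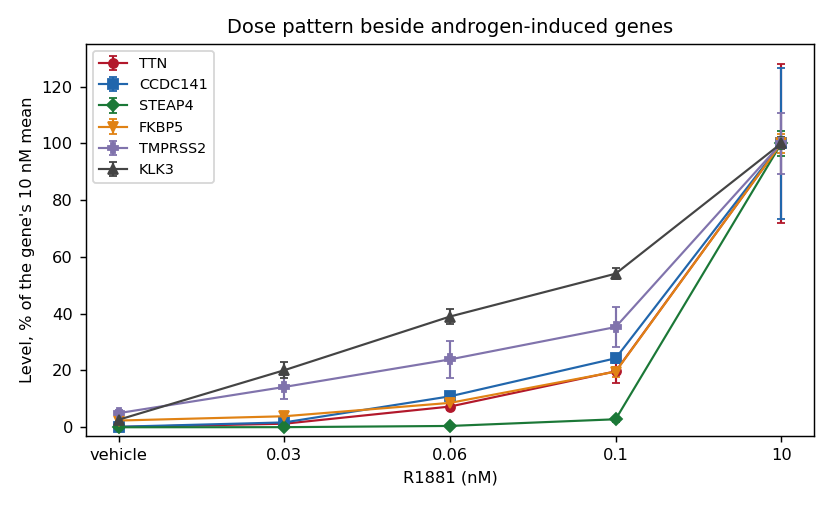
Mean level at each R1881 dose as a percent of the gene's own 10 nM mean, for TTN, CCDC141 and 4 androgen-induced genes; bars are the SD of 3 libraries and doses are evenly spaced, not to scale. At 0.1 nM TTN and FKBP5 were at 19.7 and 19.6%, between STEAP4 at 2.82% and KLK3 at 54.1%.

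On this scale the vehicle level is not subtracted, and it was 0.0931% of the 10 nM mean for TTN and 0.179% for CCDC141, against 2.37% for FKBP5 and 2.66% for KLK3. A gene with a very large fold, as TTN and CCDC141 were chosen to have, therefore starts lower on it.

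Over the 15 libraries, the levels of TTN and CCDC141 on the log2(CPM + 0.1) scale had a Pearson r of 0.99 and a Spearman rho of 0.971. TTN and TTN-AS1 had an r of -0.544, and CCDC141 and TTN-AS1 an r of -0.523. These describe libraries that share 5 doses and come with no test. Among 13536 genes compared, those with the highest r to TTN were MPC2 (0.9941), a subunit of the mitochondrial pyruvate carrier, the kinase gene MAK (0.9932), the amino acid transporter gene SLC38A4 (0.9921), HPGD (0.9912), whose enzyme breaks down prostaglandins, and SNAI2 (0.9911), a transcriptional repressor. For CCDC141 they were SLC38A4 (0.9968), MPC2 (0.994), the T-box factor gene TBX15 (0.992), MALT1 (0.9919), a paracaspase gene, and F5 (0.9911), which encodes coagulation factor V. An r above 0.95 was shared by 318 genes with TTN and 296 with CCDC141.

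A high r marks a like shape over dose, with or without a like size of change. SLC38A4 averaged 0.0303 CPM in vehicle, 0.724 at 0.03 nM, 3.43 at 0.06 nM, 8.84 at 0.1 nM and 28.7 at 10 nM, much as TTN did. MPC2 averaged 182, 282, 403, 502 and 770 CPM over the same groups, a far smaller fold from a far higher base. For TTN-AS1 no gene had an r above 0.95. The highest values were those of TYRP1 (0.8673), PCDHGB2 (0.8416), SLX4IP (0.8355), FER1L4 (0.8333) and LINC02718 (0.8256). Ranked by Spearman rho, none of the 5 genes nearest TTN or CCDC141 was among the 5 by Pearson r, and 1 was for TTN-AS1.

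Neither of the genes that flank the locus was called higher at any dose. SESTD1, a phospholipid-binding protein gene whose end lies 51.6 kb upstream of the CCDC141 start, had 18.4, 17.3 and 19.2 CPM at 10 nM, against 24.2, 24.2 and 27.1 CPM in vehicle (log2 -0.46 ± 0.077, SE, edgeR adjusted p = 5.23e-05). PLEKHA3, which encodes a Golgi lipid-binding protein and ends 4.72 kb before the TTN-AS1 start, had 25.4, 30.3 and 27.8 CPM at 10 nM, against 26.0, 25.8 and 26.1 CPM in vehicle (0.10 ± 0.069, adjusted p = 0.21). SESTD1 fell at 10 nM, where 57.6% of all 18403 genes were called and 5209 were called lower. PLEKHA3 was not called at any dose.

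Of 19 listed genes around the locus 18 were in the table and 16 were tested. At 10 nM 7 rose and 2 fell, which is 56.2% called, against 57.6% of all tested genes, at a median log2 fold change of 0.16 against -0.013. At 0.06 nM 3 rose and 1 fell (25%, against 31.2% of all genes), at 0.1 nM 4 rose and none fell (25%, against 42.1%), and at 0.03 nM none was called (against 8.63%). The split at 10 nM depends on the scaling: with library totals alone 4 rose and 4 fell, and among all genes the share of calls that were higher was 27.8% and not 50.9%. At 0.03 nM, where edgeR called none, 4 neighbours had an unadjusted p under 0.05 (2 higher, 2 lower), DESeq2 also called 0, and some alternatives called 1 or 2. At 0.1 nM no neighbour was lower at an unadjusted p under 0.05.

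The largest change among the neighbours was that of ZNF385B, a zinc finger gene further upstream on the same strand. It had 25.1, 16.1 and 25.4 CPM at 10 nM, against 6.26, 4.75 and 7.02 CPM in vehicle (1.88 ± 0.19, SE, edgeR adjusted p = 1.19e-07). It rose at 0.06 and 0.1 nM by 1.21 and 1.5 on the log2 scale. At 0.03 nM it was at 0.64 ± 0.19, on the threshold but not called (edgeR adjusted p = 0.05). With 1 library left out it was called there in 5 of 15 fits. Its 10 nM library 3 was also its lowest at that dose. RBM45, an RNA-binding protein gene, had 25.6, 25 and 24.7 CPM at 10 nM, against 16.3, 16.2 and 16.7 CPM in vehicle (0.61 ± 0.071, adjusted p = 7.14e-07). It was not called at the 3 lower doses, where its log2 fold changes were -0.18, -0.12 and -0.11. The rest were smaller. CWC22, a spliceosome gene, rose by 0.48, NFE2L2, the transcription factor of the oxidative stress response, by 0.38, and HNRNPA3, an RNA-binding protein gene, by 0.32, which was 0.11 and not called with library totals alone. OSBPL6, an oxysterol-binding protein gene, rose by 0.40 (adjusted p = 0.0141), a call lost when any 1 of vehicle libraries 2 and 4 and 10 nM libraries 3 and 4 was left out (0.34 to 0.36) and with library totals alone (0.20). PRKRA, an activator of the kinase PKR, rose by 0.18, but was at -0.03 with library totals alone. PJVK, a gene of inner-ear hair cells, fell by 0.67. AGPS, TTC30A, TTC30B, PDE11A, FKBP7 and UBE2E3 were not called at 10 nM, with log2 fold changes of -0.32 to 0.51.

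**Figure D4:**
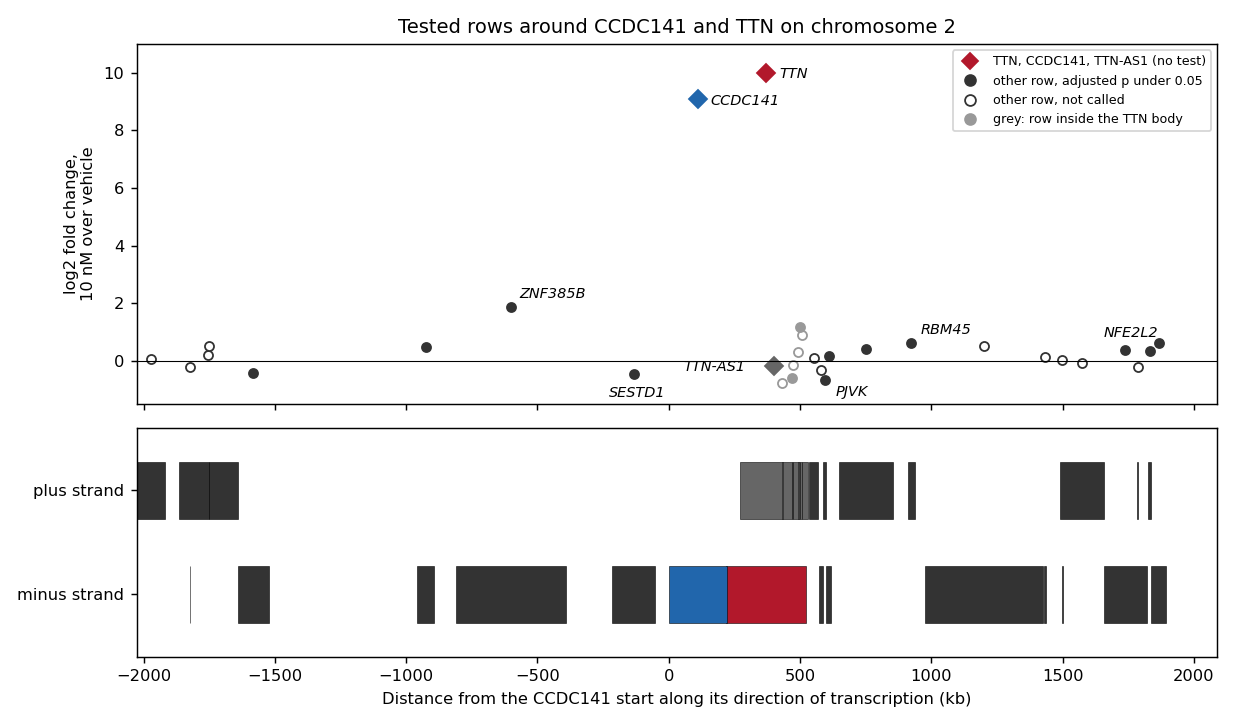
Log2 fold change of 10 nM over vehicle (upper panel, linear log2 axis) for each tested row of the region, by distance from the CCDC141 start, placed at the middle of its gene, and the spans of these genes on each strand (lower panel). TTN at 10.0 and CCDC141 at 9.08 stand far above the other rows, of which ZNF385B at 1.88 is the highest.

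Other muscle genes did not follow TTN as a group. Of 73 listed genes of the thick filament and M-band, the thin filament, the Z-disc and the partners of titin, 65 were in the table and 35 were tested. At 10 nM 5 rose and 16 fell, which is 60% called, against 57.6% of all genes, at a median log2 fold change of -0.44 against -0.013. At 0.03 nM none rose and 2 fell (5.71%, against 8.63%), at 0.06 nM 3 rose and 10 fell (37.1%, against 31.2%), and at 0.1 nM 4 rose and 11 fell (42.9%, against 42.1%). At 0.03 nM 1 gene was higher and 7 were lower at an unadjusted p under 0.05 in edgeR, and DESeq2 called 3 in all. With library totals alone 4 rose and 21 fell at 10 nM. A stricter filter on low counts left fewer of these genes to test and 12 called at 10 nM.

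The lists taken singly are short, and 57.6% of all genes were called at 10 nM. Among thick filament and M-band genes 1 rose and 6 fell of 8 tested. The 1 that rose was MYBPC1, a myosin-binding protein gene of slow skeletal muscle, with 32.2, 26.7 and 39.3 CPM at 10 nM, against 0.54, 0.466 and 0.692 CPM in vehicle (5.85 ± 0.19, SE, edgeR adjusted p = 3.49e-14). It was the nearest of the listed muscle genes to TTN in size of change, yet its log2 fold change was 0.57 at 0.03 nM and 1.94 at 0.06 nM, against 3.70 and 6.24 for TTN. Of those that fell, SPEG, a kinase gene of striated muscle, fell by 2.68 and MYOM2, which encodes an M-band protein, fell by 0.83.

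Thin filament genes split, with 2 up and 2 down of 11 tested. TPM1, a tropomyosin gene with forms in many cell types, had 242, 273 and 259 CPM at 10 nM, against 107, 111 and 109 CPM in vehicle (1.24 ± 0.060, SE, edgeR adjusted p = 6.23e-12), and TPM3, another tropomyosin gene, rose by 0.32, which was 0.11 and not called with library totals alone. NEB, which encodes the giant thin filament protein nebulin, had 1.95, 1.87 and 1.46 CPM at 10 nM, against 4.97, 4.57 and 4.89 CPM in vehicle (-1.44 ± 0.14, adjusted p = 1.03e-07), and TMOD1, a cap of actin filaments, fell by 0.86. In the Z-disc list 1 rose and 3 fell of 7. PDLIM5, a PDZ and LIM protein gene expressed in many tissues, rose to 220, 264 and 247 CPM at 10 nM, against 82.0, 108 and 95.4 CPM in vehicle, while MYOZ1 fell by 4.98, MYOZ3 by 3.61 and PDLIM3 by 1.80. All 3 that fell were scarce, and MYOZ1 had only 0.0264, 0.037 and 0.0252 CPM at 10 nM, against 1.01, 1.13 and 1.02 CPM in vehicle, so that its fold rests on very few counts at 10 nM. Of 9 tested titin partners 1 rose and 5 fell. FHL2, a LIM protein gene, rose by 1.91 to a mean of 0.572 CPM, from 0.0469, 0.266 and 0.138 CPM in vehicle. It passed the filter on low counts only through the 10 nM group, so the filter favoured its rise, which is counted among the muscle genes above. MYOZ3, with 0.422, 0.222 and 0.3 CPM in vehicle, passed only through vehicle and 0.03 nM libraries, which favoured a fall. ANKRD2, a muscle ankyrin repeat gene, fell by 2.46, TRIM54, a muscle ubiquitin ligase gene, by 1.18 and SMYD2, a methyltransferase gene, by 0.65.

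Genes known to control titin splicing and those tied to CCDC141 had log2 fold changes of -0.86 to 1.08 at 10 nM. Of 3 splicing genes, RBM24 had 9.47, 8.4 and 9.06 CPM at 10 nM, against 5.86, 6.04 and 5.63 CPM in vehicle (0.62 ± 0.11, SE, edgeR adjusted p = 0.00015). PTBP1 rose by 0.17 but was at -0.04 with library totals alone. RBM20, the main titin splicing factor of heart muscle, was at -0.51 ± 0.32 and not called (adjusted p = 0.181). Of 7 CCDC141 partners 4 rose and 1 fell, where 57.6% of all genes were called. MYL12A, a light chain of non-muscle myosin, had 168, 178 and 174 CPM at 10 nM, against 92.9, 89.0 and 81.7 CPM in vehicle (0.98 ± 0.054, adjusted p = 3.68e-11). Its near-identical paralog MYL12B rose by 0.50, and reads could have been split between the pair. MYH10, a non-muscle myosin II heavy chain, had 285, 291 and 275 CPM at 10 nM, against 495, 500 and 545 CPM in vehicle (-0.86 ± 0.052, adjusted p = 1.56e-10). HDAC6 rose by 0.32, which was 0.11 and not called with library totals alone.

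**Figure D5:**
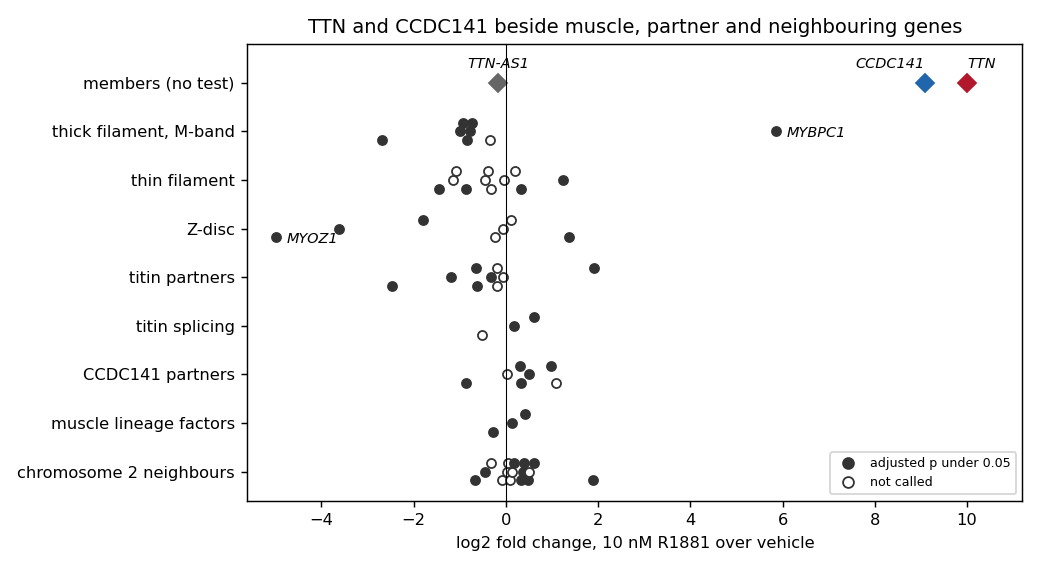
Log2 fold change of 10 nM R1881 over vehicle, 1 dot per tested gene by list, filled where the edgeR adjusted p was under 0.05; the diamonds are the 3 genes of the locus, which have no test. The nearest listed gene to TTN and CCDC141 is MYBPC1 at 5.85, and most called sarcomere genes lie below 0.

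Muscle lineage factors and markers of other cells were checked beside TTN. The libraries were those of a luminal prostate line at both ends of the series: 10 luminal markers summed to 13400 to 13800 CPM at 10 nM and to 3880 to 4000 CPM in vehicle, with none at 0. MYF5, MEF2C and MYOCD had at most 0.105 CPM in any 10 nM library, and MYF5 was at 0 in all 3 and in vehicle. MYOD1, MYOG and MYF6 have no row in the table. Of 3 tested muscle lineage factors, which many cell types express, SRF rose by 0.41, MEF2A fell by 0.27 and MEF2D rose by 0.14. MEF2D was at -0.06 with library totals alone. All 3 were called, where 57.6% of all genes were called at 10 nM. The 10 fibroblast and smooth muscle markers in the table summed to 29.7 to 32.1 CPM at 10 nM and 37.1 to 48.1 CPM in vehicle. Of the 6 of them tested 1 rose and 4 fell at 10 nM, where 57.6% of all genes were called. COL1A1, COL3A1, LUM and PDGFRB, genes of fibroblasts and pericytes, fell by 0.85, 2.58, 2.42 and 1.66 on the log2 scale. The 1 that rose was ACTA2, smooth muscle actin, which had 6.12, 8.94 and 9.03 CPM at 10 nM, against 2.7, 3.75 and 3.37 CPM in vehicle, while MYH11, smooth muscle myosin, had at most 0.101 CPM in these 6 libraries. The 7 leukocyte and endothelial markers summed to 5.24 to 8.04 CPM at 10 nM and 16.7 to 20.2 CPM in vehicle, nearly all from VWF.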

How the data were processed

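RNA from LNCaP cells was sequenced from KAPA Stranded mRNA-Seq libraries, per the labels' protocols. Per the submitters' processing notes, Trimmomatic 0.39, STAR 2.7.8a and DESeq2 1.36.0 were used on GRCh38/hg38. The counter, annotation release and strand setting are not given in the sources used here. The authors deposited raw counts per Ensembl gene; 15 VCaP columns match no label and were not used. Library totals ran from 30666460 to 61199483 counts, and low counts limit the precision of TTN and CCDC141 in vehicle.

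All 15 LNCaP libraries, grouped by labelled dose, were fitted together with edgeR 4.0.16 in R 4.3.3 (TMM factors, filterByExpr, quasi-likelihood test, two-sided, 1 mean per group). Genes were called at a Benjamini-Hochberg adjusted p under 0.05 over 18403 tested genes. Fold changes use a prior count of 0.125, and SE is the fold change over the root of F. The same steps were tested on simulated data. IDs were matched without version (36632 had a GENCODE 29 position). Of 54 genes named from the lists, 6 share bases with a gene of their own strand and 26 with one of the other strand.

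Members and lists were chosen with earlier results of these data known. Named were the 3 members, the 5 genes most like each by Pearson r, every tested neighbour, up to 4 genes of each list with the smallest p at 10 nM, and KLK3, FKBP5, TMPRSS2 and STEAP4. A gene that this rule names is not reported here. LUM, MYH11, NDRG1 and the low or absent muscle factors are list members named after their values were seen. Alternatives were other scalings, filters and libraries, DESeq2 1.42.0 and a block on replicate number. Promoter windows come from RefSeq.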

Additional observations from a re-analysis of the deposited data

How the results depend on the processing

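TTN and CCDC141 kept their direction at every dose under every alternative run. Leaving out 1 library at a time moved the log2 fold change of TTN over vehicle between 3.15 and 4.84 at 0.03 nM, 5.68 and 7.38 at 0.06 nM, 7.1 and 8.8 at 0.1 nM, and 9.44 and 11.14 at 10 nM, in each case highest without vehicle library 2. TTN-AS1 at 10 nM was at -0.38 with library totals alone, against -0.17. At 10 nM with library totals alone, PRKRA (-0.03), PTBP1 (-0.04) and MEF2D (-0.06) turned negative.

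Counts of called genes at 0.03 nM moved most. All genes called there were 1588, against 1008 from only the libraries compared, and 979 to 1650 with 1 library left out, lowest without vehicle library 4. Neighbours called at 0.03 nM were 0, against 1 with RLE size factors, with no filter, with only the libraries compared or without the libraries numbered 3 (an alternative chosen after seeing the data), and 0 to 2 with 1 library left out. At 0.06 nM neighbours called were 4, and 2 to 5 with 1 library left out, lowest without 0.06 nM library 4. Sarcomere and titin partner genes called at 0.03 nM were 2, against 4 with no filter and 4 without the libraries numbered 3. At 10 nM they were 21, against 12 with the stricter filter, which tested fewer genes. Where nothing else is said, the cause was not tested.

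Replicate numbers recur across doses. Same-numbered libraries deviated together with correlations of -0.0138 to 0.315, over 0.1 in 23 of 30 pairs. These were all 10 pairs of number 2, all 10 of number 3 and only 3 of 10 of number 4. Pairs with different numbers had -0.232 to 0.102, with 1 of 60 over 0.1. All 15 libraries were closest to their own number, a hint from the data of a shared replicate effect, weaker for number 4. The main fit did not use the numbers, so it leaves out any such effect. With the replicate block at 0.03 nM, 3195 genes, 2 neighbours and 9 sarcomere and titin partner genes were called, and at 0.06 nM 8 of 16 neighbours, against 7290 of all 18403 genes. TTN, CCDC141 and TTN-AS1 at 10 nM were then at 9.98, 9.06 and -0.17.

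Over the 54 other named genes, 4750 of 4916 alternative values kept direction and side of the threshold, 88 lost the call, 75 gained one and 3 reversed. At this depth the vehicle levels of TTN and CCDC141 are known only within the counting intervals given.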
